A study of Mus musculus with 4 samples.

Results

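Epi-CE-T, a mouse population made from epiblast stem cells (EpiSCs) and sorted for a Brachyury (T) reporter, was compared with ES-NMP, a population made from embryonic stem cells (ESCs) as neuromesodermal progenitors (NMPs). The cells of both were those marked TRUE in a column of the deposited cell table, which were 2109 of 2201 barcodes in Epi-CE-T and 3116 of 3288 in ES-NMP. Together they made 5225 of the 10579 barcodes of a 10x Chromium series with 4 libraries. Epi-CE-T cells carried the Bra:GFP reporter and were kept as EpiSCs in N2B27 medium with FGF2 at 12 ng/ml and activin A at 25 ng/ml on fibronectin for at least 4 passages. They then received FGF2 at 20 ng/ml without activin and, on day 3, CHIR99021 at 3 µM, a GSK3 inhibitor that switches on WNT signalling, and GFP-positive cells were collected after 72 h. ES-NMP cells, on gelatine, spent 2 days in N2B27 alone and a further 24 h with CHIR99021 at 3 µM, which is 72 h in all, and no sort is described for them. Both libraries carry the strain label E14Tg2a, a mouse ESC line. Each population is 1 library, so no difference has a replicate check and no test across samples was possible. The starting cell type, the medium, the coating, the reporter line, the sort and the library differ together between the populations and cannot be told apart. How long Epi-CE-T cells were in CHIR99021 before collection was not given.

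NMPs lie in the caudal epiblast of the embryo, next to the node, and give rise to both spinal cord and paraxial mesoderm. They are recognised by T together with Sox2, by Nkx1-2 and by caudal homeobox (Cdx) genes, and they switch on Hox genes in the order of the body axis. T is also a master regulator of the notochord, the midline rod that grows out from the node and secretes Sonic hedgehog and the BMP antagonists chordin and noggin.

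The libraries held 44990488 UMIs (unique molecular identifiers, each a counted RNA molecule) in Epi-CE-T and 71563029 in ES-NMP, with medians of 19189 and 22066 per cell. Levels are given as UMIs per 1000000 (CPM), and 3 counts, the floor used below, correspond to 0.0667 CPM in Epi-CE-T and 0.0419 CPM in ES-NMP. Intervals in parentheses are exact 95% intervals that cover counting error only. Mitochondrial genes took 2.67% of UMIs in Epi-CE-T and 2.28% in ES-NMP, and ribosomal protein genes took 28.2% in both. The libraries shared 9 cell barcode sequences. Hprt (chromosome X, 52988137 to 53021659, plus strand), a purine salvage gene that the E14Tg2a line is known to lack, was at 138 CPM in Epi-CE-T and 204 CPM in ES-NMP, which goes against the strain label of both libraries. In the other 2 libraries of the series, Epi-CE and Epi-NMP, it was at 0.801 and 0.943 CPM.

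Of 27998 genes, 13490 had at least 50 UMIs over both libraries. Of these, 2368 (17.6%) were at least 2-fold higher in Epi-CE-T and 1641 (12.2%) were at least 2-fold lower. The median gene had a log2 ratio of 0.08, and scaling by TMM factors shifted all log2 ratios by -0.10. Cells were also clustered within each library, which gave 5 clusters in Epi-CE-T and 8 of at least 50 cells in ES-NMP. Every Epi-CE-T cluster lay above every one of these ES-NMP clusters for 1417 genes (10.5%), and every one lay below for 1111 genes (8.24%). Statements below on all ES-NMP clusters cover those of at least 50 cells. Gene lists were read against these shares of all genes. Those that stood furthest out on the higher side were node and notochord genes, interferon genes, IGF binding genes and glycolysis genes. On the lower side they were naive pluripotency genes, Hox genes, germ cell genes and the caudal epiblast and NMP genes themselves.

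**Figure D1:**
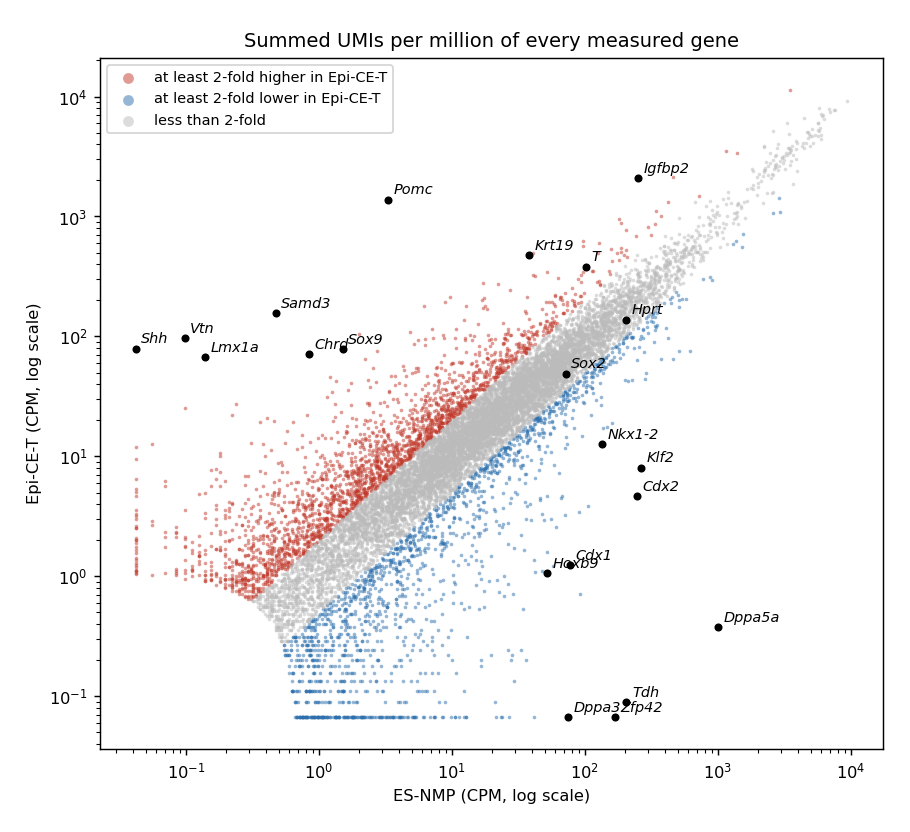
Each point is 1 of 13490 measured genes, with its level in Epi-CE-T on the y axis and in ES-NMP on the x axis (CPM, log scales; levels under 3 counts are drawn at that floor). Red genes were at least 2-fold higher and blue genes at least 2-fold lower in Epi-CE-T; Shh, Vtn and Lmx1a stand at the top left and Zfp42, Tdh and Dppa5a at the bottom right.

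**Figure D2:**
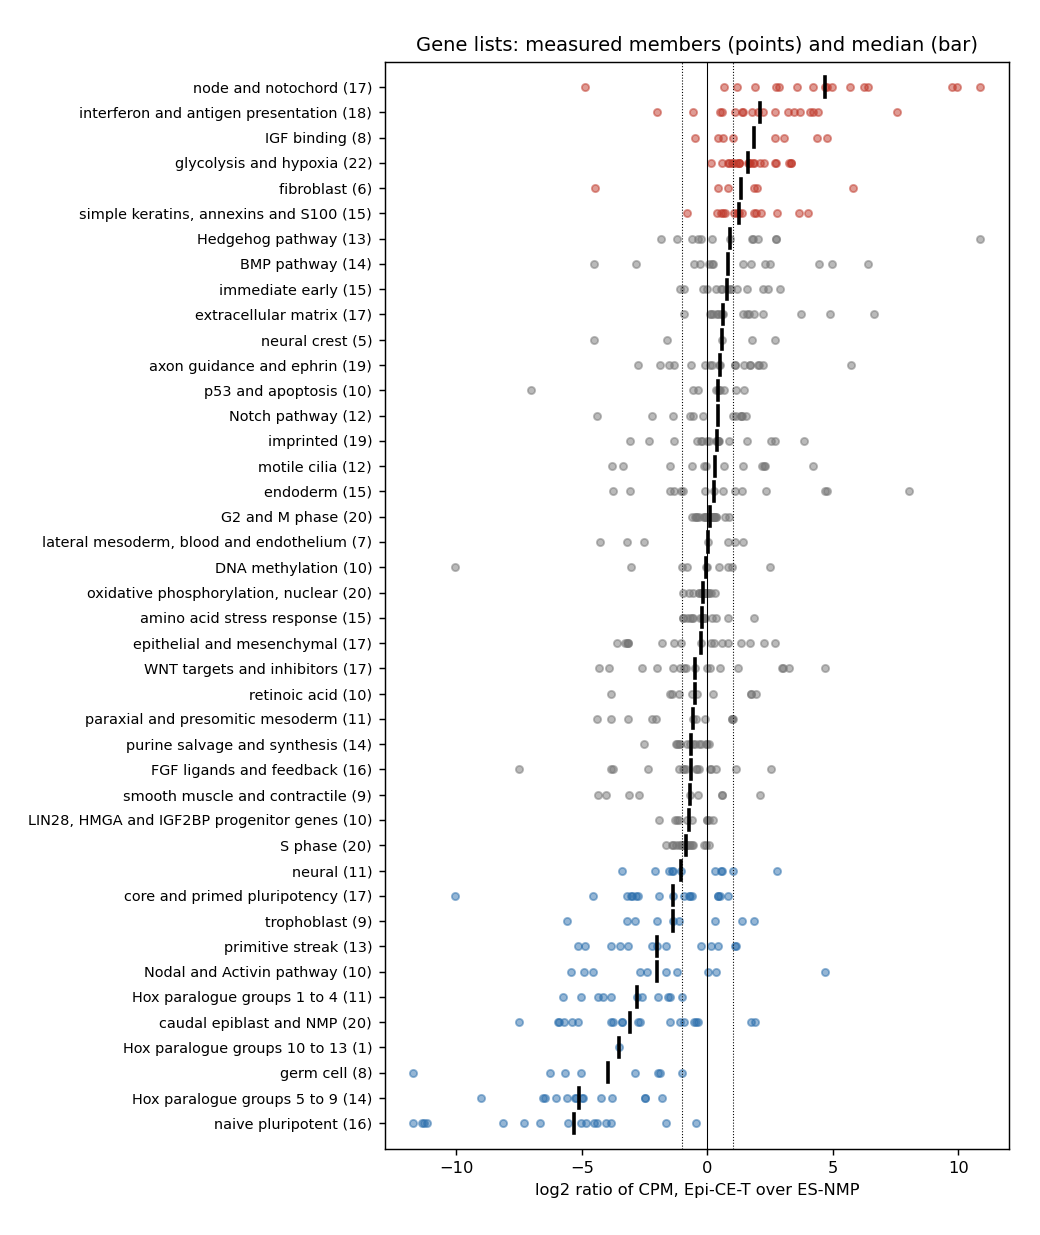
Points are the log2 ratios (Epi-CE-T over ES-NMP) of the measured members of each gene list, black bars are list medians, numbers in parentheses count the measured members and dotted lines mark 2-fold. Medians ran from 4.67 for node and notochord genes to -5.30 for naive pluripotency genes, and colour marks lists with a median past 2-fold.

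The sorted population had more T and far less of the other caudal epiblast and NMP genes. T (chromosome 17, 8434423 to 8442496, plus strand) was at 382 CPM in Epi-CE-T and 102 CPM in ES-NMP, and it was 3.73-fold higher (3.63 to 3.84). Since the cells were chosen by a T reporter, this ratio is a description of what was sorted. Sox2 (chromosome 3, 34650405 to 34652461, plus strand), a factor of pluripotent and neural cells, was at 49.0 CPM in Epi-CE-T and 71.7 CPM in ES-NMP, or 1.46-fold lower (1.39 to 1.54), but leaving out cluster 2 of ES-NMP, its naive pluripotent-like cells, turned its log2 ratio to 0.44. Nkx1-2 (chromosome 7, 132594878 to 132599637, minus strand), a homeobox factor of the caudal epiblast, was at 12.6 CPM (11.6 to 13.7) in Epi-CE-T and 134 CPM (132 to 137) in ES-NMP, and was 10.6-fold lower (9.78 to 11.6). Cdx2 (chromosome 5, 147300805 to 147307270, minus strand), which drives posterior Hox genes, was at 4.67 CPM in Epi-CE-T and 245 CPM in ES-NMP, or 52.4-fold lower (45.7 to 60.3). Its relative Cdx1 was at 1.24 CPM in Epi-CE-T and 77.6 CPM in ES-NMP, or 62.3-fold lower (47.9 to 82.6). Cdx4 had no UMI in Epi-CE-T and 284 in ES-NMP (3.97 CPM), so it was at least 59.5-fold lower. Of the genes that are read together as an NMP signature, T was thus the higher one, Sox2 was within 2-fold, and Nkx1-2 and the Cdx genes were lower.

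Of the 20 caudal epiblast and NMP genes, all measured, 14 were at least 2-fold lower in Epi-CE-T and 2 were higher, with a median log2 ratio of -3.08. The 2 higher ones were T and Cyp26a1, which encodes an enzyme that breaks down retinoic acid, at 12.3 CPM in Epi-CE-T and 3.66 CPM in ES-NMP. Among the ligands, Wnt3a was at 0.311 CPM in Epi-CE-T against 13.04 CPM in ES-NMP (41.9-fold lower), Fgf8 at 4.69 CPM in Epi-CE-T against 66.7 CPM in ES-NMP (14.2-fold lower) and Fgf17 at 1.22 CPM in Epi-CE-T against 16.8 CPM in ES-NMP (13.7-fold lower). These WNT and FGF ligands maintain the caudal progenitor zone of the embryo. Wnt8a differed less, at 15.7 CPM in Epi-CE-T and 44.1 CPM in ES-NMP (2.82-fold lower), and Wnt5a and Fgf15 were within 2-fold. Hes3, a transcriptional repressor of the Hes family, was at 0.200 CPM in Epi-CE-T and 36.1 CPM in ES-NMP, or 180.4-fold lower (94.9 to 395). Among the other transcription factors, Evx1 was 35.9-fold lower, Gbx2 10.5-fold lower, Sp8 6.44-fold lower and Sp5 2.12-fold lower. Cdx1, Cdx2 and Hes3 were below every ES-NMP cluster of at least 50 cells in every Epi-CE-T cluster.

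The same contrast was seen cell by cell. Each cell was thinned at random to 8000 UMIs so that depth was equal, and no cell was too shallow for this. T was detected in 1565 of 2109 cells (74.2%, 72.3% to 76.1%) of Epi-CE-T and 1028 of 3116 cells (33.0%, 31.3% to 34.7%) of ES-NMP; without thinning it was 1743 of 2109 cells (82.6%) and 1484 of 3116 cells (47.6%). Nkx1-2 was detected in 100 of 2109 cells (4.74%, 3.87% to 5.74%) of Epi-CE-T and 1604 of 3116 cells (51.5%, 49.7% to 53.2%) of ES-NMP, and unthinned in 220 of 2109 cells (10.4%) and 2176 of 3116 cells (69.8%). Cdx2 was detected in 25 of 2109 cells (1.19%, 0.769% to 1.74%) of Epi-CE-T and 1636 of 3116 cells (52.5%, 50.7% to 54.3%) of ES-NMP, and unthinned in 51 of 2109 cells (2.42%) and 1975 of 3116 cells (63.4%). Free RNA can add a background to such shares, and its part was not tested. In the neural-like cluster of ES-NMP (median 20656 UMIs), T was found in 6 of 214 cells (2.80%) and Nkx1-2 in 42 of 214 cells (19.6%). Whether these UMIs came from the cells themselves or from free RNA was not tested. In cluster 2 of Epi-CE-T (median 14337 UMIs), Nkx1-2 and Cdx2 were each found in 0 of 536 cells, which allows a share of cells with a UMI of up to 0.560% (3 cells of the total).

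Among the 1565 Epi-CE-T cells with a T UMI, 29 (1.85%) also had an Nkx1-2 UMI, against 690 of the 1028 T-positive cells (67.1%) of ES-NMP. Cdx2 was found beside T in 14 of the Epi-CE-T cells (0.895%) and in 731 of the ES-NMP cells (71.1%). Sox2 was found beside T in 308 Epi-CE-T cells, or 19.7% of those with T, and in 188 ES-NMP cells, or 18.3% of those with T. Without thinning, the shares with Sox2 were 36.9% in Epi-CE-T and 40.1% in ES-NMP, so their order turned with depth and no difference in Sox2 was read. T-positive cells of the populations thus differed in Nkx1-2 and Cdx2. Shh was found beside T in 785 Epi-CE-T cells (50.2% of those with T) and in 0 of the 1028 ES-NMP cells with T. Without thinning, Shh was beside T in 1108 of 1743 such Epi-CE-T cells (63.6%) and in 1 of 1484 such ES-NMP cells (0.0674%).

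**Figure D3:**
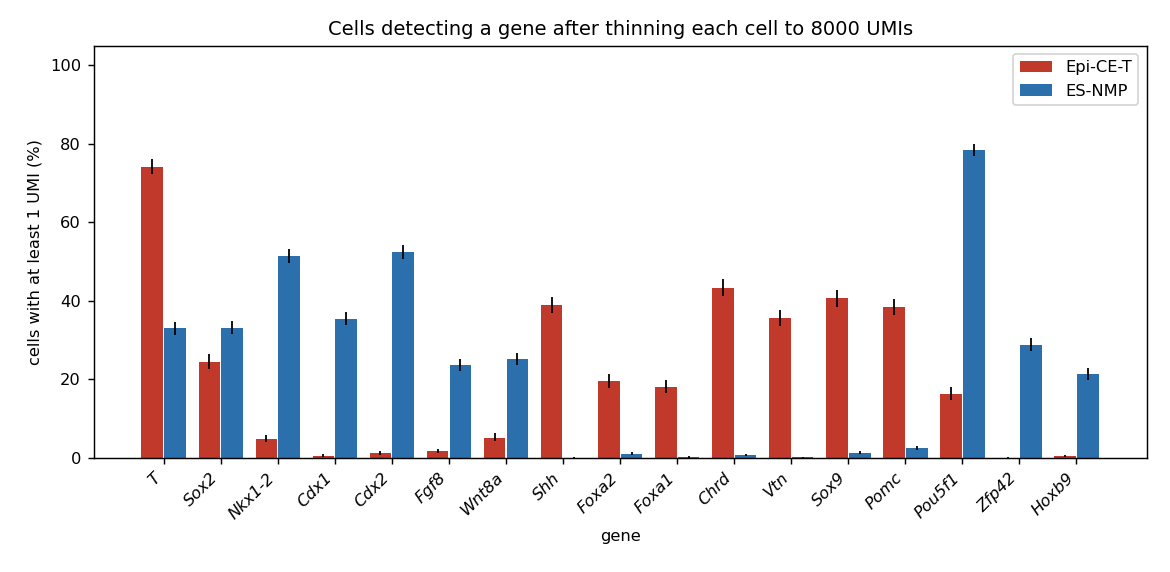
Bars give the percentage of cells with at least 1 UMI of a gene after every cell was thinned to 8000 UMIs, in 2109 Epi-CE-T cells (red) and 3116 ES-NMP cells (blue), and error bars are exact 95% intervals. T, Shh, Foxa2, Chrd, Vtn and Sox9 are higher in Epi-CE-T, and Nkx1-2, Cdx1, Cdx2, Fgf8, Pou5f1, Zfp42 and Hoxb9 are higher in ES-NMP.

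Clusters of Epi-CE-T differed in T. Clusters 1, 2 and 3 held 28.9%, 25.4% and 21.5% of its cells and had T at 439, 778 and 471 CPM. Cluster 1 was led by mitotic genes, cluster 2 by Pcdh17 and Spp1, and cluster 3 by Dkk1 and Ptgds, and none of these met the rule for a cell type name. That rule asks for 2-fold over the rest of the library, so genes shared by most of its cells can fail it. Shh, for example, was at 101, 171 and 86.6 CPM in clusters 1, 2 and 3. A missing name thus does not mean that node and notochord genes were missing. Cluster 4 held 20.6% of the cells, with a median of 29078.5 UMIs per cell, and was led by Wnt8a, Utf1 and Nkx1-2. It was called caudal epiblast and NMP-like against the rest of Epi-CE-T, although T, at 53.8 CPM, was lowest there. Cdx2 was at 14.1 CPM and Cdx1 at 4.12 CPM in cluster 4. Utf1 and Pou5f1 were among its top 10 genes, but the core and primed pluripotency list was not used for naming. T was detected in 98 of 434 cells (22.6%) of cluster 4 after thinning. Cluster 5, with 76 cells, was led by Col1a1 and Anxa1, had T at 119.8 CPM and stayed unnamed. In ES-NMP, clusters 3 and 5 (15.1% and 12.5% of cells, medians of 22091.5 and 21220 UMIs) were caudal epiblast and NMP-like, cluster 2 (20.3%) was naive pluripotent-like, cluster 6 (6.87%) was neural-like and cluster 8 (2.86%) was smooth muscle and contractile-like, although keratins led it too. Cluster 4 of ES-NMP, with Nkx1-2 at 241 and Cdx2 at 628 CPM, held 5 caudal epiblast and NMP markers, and cluster 2 of Epi-CE-T held 5 node and notochord markers. Neither had any of those markers among its top 10 genes, as the rule for a name asks, so both stayed unnamed.

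When the caudal epiblast and NMP-like cells alone were set against each other, cluster 4 of Epi-CE-T against clusters 3 and 5 of ES-NMP, the caudal genes still differed. ES-NMP cluster 4, being unnamed, is not among these cells. The clusters were named by some of these genes, each against the rest of its own library. The levels are thus a description, and the cells set side by side need not be of the same type. Nkx1-2 was at 41.1 CPM in these Epi-CE-T cells and 229.7 CPM in these ES-NMP cells, and Cdx2 was at 14.1 and 453 CPM. T was at 53.8 CPM in these Epi-CE-T cells and 222 CPM in these ES-NMP cells, which is the reverse of the order in the whole libraries. Of 20 caudal epiblast and NMP genes, 17 were at least 2-fold lower and 1, Sox2, was higher (76.8 and 25.5 CPM). Over all 11146 genes measured in these cells, 4.93% were lower and 8.61% were higher. All 23 measured Hox genes of groups 1 to 9 were lower there too, with Hoxb9 at 3.44 and 66.2 CPM. Of the glycolysis and hypoxia genes, 17 of 22 were at least 2-fold higher in these cells, with a median of 1.40.

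**Figure D4:**
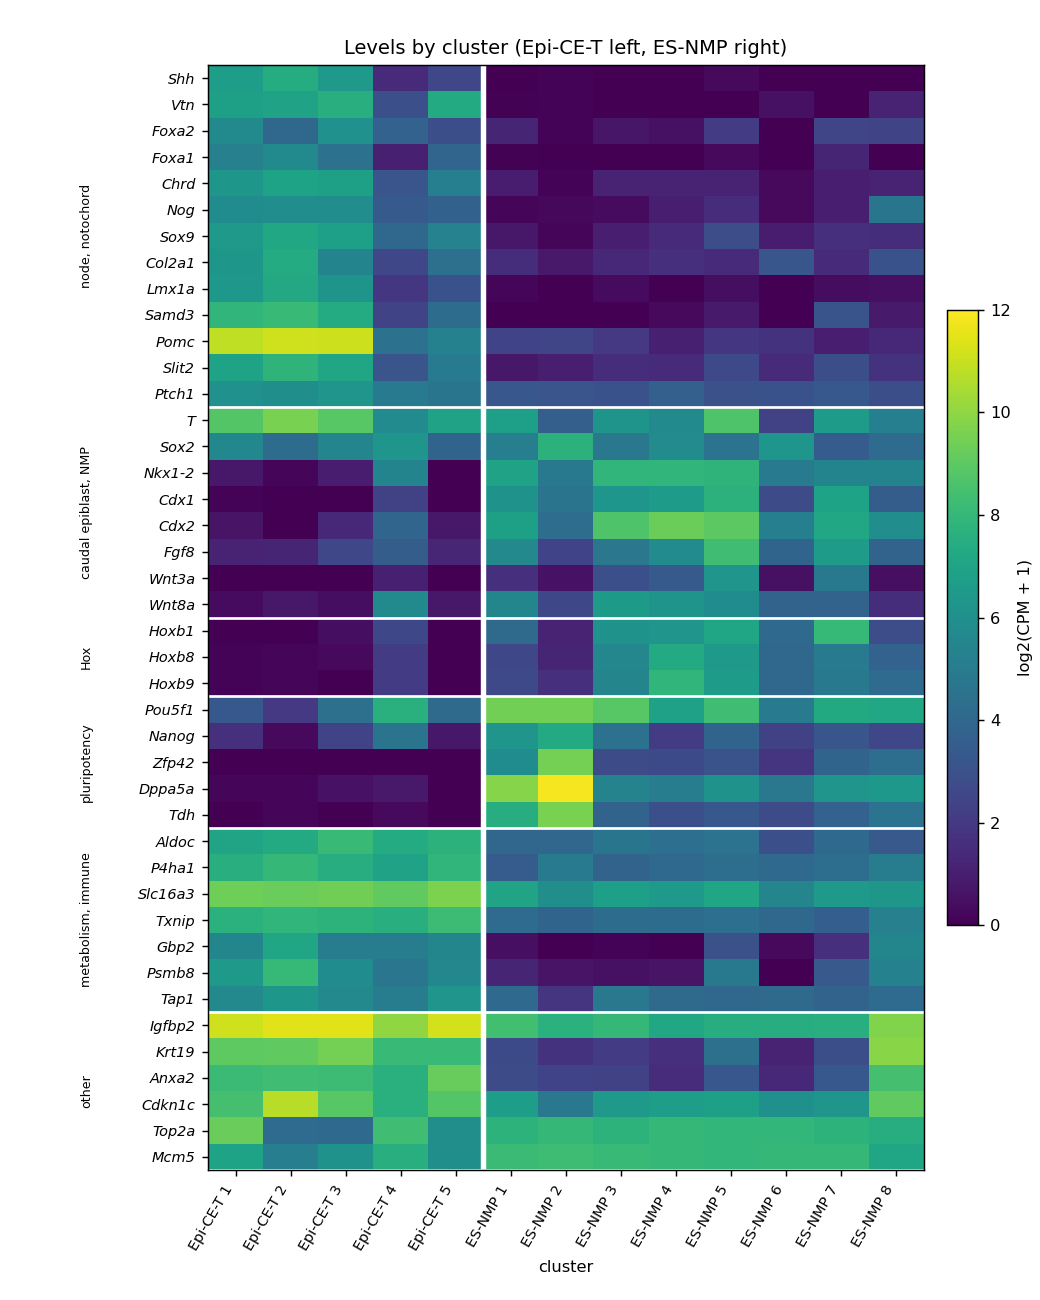
Colour gives log2(CPM + 1) of each gene in the summed cells of each cluster, with the 5 Epi-CE-T clusters left of the white line and the 8 ES-NMP clusters right of it. Node and notochord genes are high in Epi-CE-T clusters 1 to 3. Nkx1-2, Cdx1, Cdx2, Fgf8, Wnt3a and Wnt8a each peak in ES-NMP cluster 3, 4 or 5. T is highest in Epi-CE-T cluster 2 and Sox2 in ES-NMP cluster 2. Cluster 4 of Epi-CE-T has Nkx1-2, Wnt8a and Pou5f1 with little Cdx2 or Hox.

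Node and notochord genes were the list furthest on the higher side. Of 18 genes, 17 were measured, 15 were at least 2-fold higher in Epi-CE-T, the sorted gene T among them, and 1, Mixl1, was lower, with a median log2 ratio of 4.67. Their summed level was 1237 CPM in Epi-CE-T and 269 CPM in ES-NMP. For 9 of them every Epi-CE-T cluster was above every ES-NMP cluster. Noto, the homeobox gene that defines the node, was the one not measured, at 11 UMIs (0.244 CPM) in Epi-CE-T and 8 UMIs (0.112 CPM) in ES-NMP.

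Shh (chromosome 5, 28456815 to 28467256, minus strand), the signal of notochord and floor plate, had 3542 UMIs (78.7 CPM, 76.2 to 81.4) in Epi-CE-T and 3 UMIs (0.0419 CPM, 0.00865 to 0.123) in ES-NMP. The ratio was 1878-fold with a wide interval of 642 to 9111, since it rests on 3 counts. After thinning, Shh was detected in 821 of 2109 cells (38.9%, 36.8% to 41.0%) of Epi-CE-T and in 0 of 3116 ES-NMP cells, which allows a share of cells with a UMI of up to 0.0963%, and without thinning in 1128 of 2109 cells (53.5%) and 2 of 3116 cells (0.0642%). Within Epi-CE-T it was found in 352 of 536 cells (65.7%) of cluster 2 but in 6 of 434 cells (1.38%) of cluster 4, the deeper of these clusters. Shh was thus found mostly in cells of the T-rich clusters. Foxa2 (chromosome 2, 148042877 to 148046969, minus strand), a forkhead factor required for the node and floor plate, was at 34.3 CPM in Epi-CE-T and 1.26 CPM in ES-NMP, or 27.3-fold higher (22.1 to 34.2). Foxj1, which switches on motile cilia such as those of the node, was at 7.25 CPM in Epi-CE-T and 0.391 CPM in ES-NMP, or 18.5-fold higher (12.6 to 28.3). Sox9, needed for cartilage and for the notochord sheath, was at 78.4 CPM in Epi-CE-T and 1.51 CPM in ES-NMP, or 51.9-fold higher (42.9 to 63.5). All 3 factors were above every ES-NMP cluster of at least 50 cells in every Epi-CE-T cluster.

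Of the other genes of the list, most encode secreted or membrane proteins and were higher too. Chrd (chromosome 16, 20733127 to 20742384, plus strand), which encodes the BMP antagonist chordin, was at 71.1 CPM in Epi-CE-T and 0.838 CPM in ES-NMP, or 84.8-fold higher (65.7 to 111). Nog, which encodes noggin, was at 42.1 CPM in Epi-CE-T and 1.36 CPM in ES-NMP, or 31.1-fold higher (25.3 to 38.5). Vtn (chromosome 11, 78499091 to 78502324, plus strand), which encodes the adhesive glycoprotein vitronectin, was at 96.8 CPM in Epi-CE-T and 0.0978 CPM in ES-NMP, or 989-fold higher (479.7 to 2462) on 7 ES-NMP counts. Pkd1l1, a polycystin-family gene with a role in sensing flow at the node, was at 12.0 CPM in Epi-CE-T and had 1 UMI in ES-NMP, or 861-fold higher (154 to 34051); in cells with a T UMI the log2 ratio was 6.99, against 9.75 in all cells. Cer1, an antagonist of Nodal and BMP, was at 2.13 CPM in Epi-CE-T and 0.0838 CPM in ES-NMP, and Bicc1, an RNA-binding regulator of left-right patterning, was at 52.3 CPM in Epi-CE-T and 4.39 CPM in ES-NMP. Dand5, the Nodal antagonist at the edge of the node, was the measured gene that moved least, at 7.45 CPM in Epi-CE-T and 4.75 CPM in ES-NMP (1.57-fold higher). The keratin gene Krt18 was at 282 CPM in Epi-CE-T and 124 CPM in ES-NMP, but cluster 8 of ES-NMP alone had it at 2768 CPM. Epi-CE, an unsorted population with the same stated FGF2, activin and CHIR99021 doses, had Foxa2 at 35.4 CPM but Shh at 4.43 and Chrd at 12.4 CPM. Its total culture time was not given. Sort, library and Hprt level differ together between Epi-CE and Epi-CE-T and cannot be told apart.

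Genes of the Hedgehog pathway were read by role. The receptor and target gene Ptch1 was at 54.6 CPM in Epi-CE-T and 8.27 CPM in ES-NMP, or 6.60-fold higher (6.04 to 7.24), and its level was higher in every Epi-CE-T cluster, from 24.1 CPM in cluster 5 upward, than in any ES-NMP cluster, where it reached 12.0 CPM at most. The target gene Hhip was at 0.845 CPM in Epi-CE-T and 0.210 CPM in ES-NMP, and the co-receptor gene Cdon at 13.3 CPM in Epi-CE-T and 2.01 CPM in ES-NMP (6.62-fold higher). In all, 6 of 13 pathway genes were at least 2-fold higher and 2 were lower, against the 17.6% and 12.2% of all genes, with a median of 0.91. The others among the higher ones, named after their values were seen, were Gli1, a transcription factor and target, at 5.98 CPM in Epi-CE-T and 1.76 CPM in ES-NMP, and Disp1, which releases the ligand, at 9.20 CPM in Epi-CE-T and 2.63 CPM in ES-NMP. The transcription factor gene Gli2, at 1.62 CPM in Epi-CE-T and 5.77 CPM in ES-NMP, was among the lower ones. The ligand Shh and the target genes Ptch1, Gli1 and Hhip were thus higher in Epi-CE-T, and Gli2 was lower. With ES-NMP cluster 2, the naive pluripotent-like one, left out, the list median was 0.28.

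The BMP genes that were higher in Epi-CE-T included a ligand as well as antagonists. Of 14 measured genes, 7 were at least 2-fold higher and 2 were lower (median 0.81). Besides the antagonists Chrd and Nog, the ligand gene Bmp2 was at 35.9 CPM in Epi-CE-T and 1.65 CPM in ES-NMP, or 21.7-fold higher (18.0 to 26.4). Msx1, a homeobox target of BMP signalling, went the other way, at 0.756 CPM in Epi-CE-T and 17.5 CPM in ES-NMP, or 23.1-fold lower (16.4 to 33.5). The other lower gene was its relative Msx2, named after its value was seen, at 0.289 CPM in Epi-CE-T and 2.10 CPM in ES-NMP.

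Several of the 12 genes with the highest ratios, among 3151 genes with at least 200 UMIs and 50 CPM in the higher library, were not on the node list. Lmx1a (chromosome 1, 167689237 to 167848741, plus strand), a LIM homeobox gene of the roof plate and of dopaminergic progenitors, was at 67.0 CPM in Epi-CE-T and 0.140 CPM in ES-NMP, or 479.6-fold higher (260.4 to 1001) on 10 ES-NMP counts. Samd3 was at 155 CPM in Epi-CE-T and 0.475 CPM in ES-NMP, or 327-fold higher (234 to 473). Slit2, a secreted axon repellent of the ventral midline, was at 105.4 CPM in Epi-CE-T and 2.01 CPM in ES-NMP, or 52.4-fold higher (44.4 to 62.3). Col2a1, the type II collagen of cartilage and notochord sheath, was at 64.7 CPM in Epi-CE-T and 2.22 CPM in ES-NMP, or 29.1-fold higher (24.8 to 34.4). Cthrc1, a secreted collagen triple helix protein, was 29.3-fold higher, Igfbp5, an IGF-binding protein gene, 27.5-fold higher, and the membrane protein gene Tmem176a 22.5-fold higher. The matrix and guidance lists to which some of these belong moved less as lists. Of 17 measured matrix genes 8 were higher and 0 lower (median 0.64), led by Col9a1 at 22.0 CPM in Epi-CE-T and 0.224 CPM in ES-NMP. Of 19 guidance genes 9 were higher and 4 lower (median 0.50).

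Pomc (chromosome 12, 3954951 to 3960642, plus strand), the precursor of ACTH, melanocortins and beta-endorphin, was also among these 12, but its counts were spread unevenly over cells. It had 61995 UMIs (1378 CPM) in Epi-CE-T and 236 UMIs (3.30 CPM) in ES-NMP, or 418-fold higher (368 to 477). The 211 Epi-CE-T cells richest in Pomc, or 1 in 10 of the library, held 84.4% of its UMIs, and 1 cell held 1392, while the median cell with any held 2. For comparison, the 211 cells richest in each gene held 41.0% of Shh UMIs, 34.0% of Chrd UMIs and 57.3% of Vtn UMIs. After thinning, Pomc was detected in 809 of 2109 cells (38.4%, 36.3% to 40.5%) of Epi-CE-T and 74 of 3116 cells (2.37%, 1.87% to 2.97%) of ES-NMP, and without thinning in 1168 of 2109 cells (55.4%) and 221 of 3116 cells (7.09%). In cluster 4 of Epi-CE-T it was found in 72 of 434 cells (16.6%), at 22.1 CPM against 2279 CPM in cluster 2. The part of free RNA in the lower of these was not tested.

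Markers of other lineages did not move as 1 block. Of 15 measured endoderm genes, 6 were at least 2-fold higher and 5 lower (median 0.25), and their summed level was 709.8 CPM in Epi-CE-T and 856 CPM in ES-NMP. The higher ones included Foxa2 and Cer1, which the node shares, and Foxa1, a forkhead factor of endoderm and floor plate, at 25.3 CPM in Epi-CE-T and 0.0978 CPM in ES-NMP, or 259-fold higher (125 to 645). The definitive endoderm gene Sox17 was at 1.20 CPM in Epi-CE-T and 2.35 CPM in ES-NMP, and Gata4 was at 0.111 CPM in Epi-CE-T and 0.461 CPM in ES-NMP. Hnf4a, an endoderm and liver factor, and Ttr, a carrier protein gene of visceral endoderm, each had 0 or 1 UMI in each library. Trh, which encodes thyrotropin-releasing hormone, was at 18.96 CPM in Epi-CE-T and 159 CPM in ES-NMP (8.37-fold lower), and the epithelial adhesion gene Epcam was at 80.9 CPM in Epi-CE-T and 168 CPM in ES-NMP (2.07-fold lower). The other higher ones were Spink1, a protease inhibitor gene, at 14.9 CPM in Epi-CE-T and 2.95 CPM in ES-NMP, Gata3, a zinc finger factor, at 0.978 CPM in Epi-CE-T and 0.377 CPM in ES-NMP, and Apoa1, an apolipoprotein gene, at 0.800 CPM in Epi-CE-T and 0.377 CPM in ES-NMP. Endoderm genes that the node list does not hold were thus found in both directions.

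Paraxial and presomitic mesoderm genes were lower in 5 and higher in 1 of 11 measured genes (median -0.57). The higher one was the Notch ligand gene Dll3, named after its value was seen, at 109 CPM in Epi-CE-T and 53.9 CPM in ES-NMP. Hes7, the oscillating repressor of the segmentation clock, was at 1.64 CPM in Epi-CE-T and 34.7 CPM in ES-NMP, or 21.1-fold lower (16.7 to 26.9). Tbx6, which commits cells to paraxial mesoderm, was at 0.911 CPM in Epi-CE-T and 8.08 CPM in ES-NMP, and Aldh1a2, the enzyme that makes retinoic acid in mesoderm, at 0.445 CPM in Epi-CE-T and 6.44 CPM in ES-NMP. In ES-NMP, Tbx6 and Aldh1a2 were highest in cluster 7, at 143 and 121 CPM, and Hes7 was highest in cluster 5, at 148 CPM. Neural genes were lower in 6 and higher in 2 of 11 (median -1.05; 0.30 when genes with fewer UMIs were kept and 0.31 in cells with a T UMI). Zic1, a zinc finger factor of dorsal neural tissue, was at 0.445 CPM in Epi-CE-T and 4.65 CPM in ES-NMP, while Nkx6-1, a ventral neural tube factor, was at 3.60 CPM in Epi-CE-T and 0.531 CPM in ES-NMP (6.78-fold higher). Primitive streak genes were lower in 8 and higher in 2 of 13 (median -2.02), with Mixl1, a homeobox factor of the streak, at 0.533 CPM in Epi-CE-T and 15.9 CPM in ES-NMP and Fgf3 at 0.556 CPM in Epi-CE-T and 6.26 CPM in ES-NMP. Gsc, a higher one named after its values were seen, was at 9.84, 2.81, 13.6, 0.449 and 15.6 CPM in clusters 1 to 5 of Epi-CE-T. In ES-NMP, Gsc was at 34.6 CPM in cluster 7 and at most 3.20 CPM in the other clusters.

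Contractile, fibroblast and trophoblast markers came from few genes or few cells. Acta2, smooth muscle actin, was at 2.96 CPM in Epi-CE-T and 48.9 CPM in ES-NMP, and in ES-NMP cluster 8 alone it was at 1258 CPM. Of 9 contractile genes, 4 were lower and 1 was higher, the muscle filament gene Des, named after its value was seen, at 43.5 CPM in Epi-CE-T and 10.1 CPM in ES-NMP. Of 6 fibroblast genes, 3 were higher and 1 was lower. Dcn, a matrix proteoglycan, was at 10.1 CPM in Epi-CE-T and 0.182 CPM in ES-NMP. Col1a1, type I collagen, was at 7.09 CPM in Epi-CE-T and 1.94 CPM in ES-NMP, and Epi-CE-T cluster 5 had it at 148 CPM. The lower one was Thy1, a surface glycoprotein gene, at 0.356 CPM in Epi-CE-T and 7.87 CPM in ES-NMP. Of 9 trophoblast genes, 2 were higher and 6 were lower, with Rhox6 at 0 in Epi-CE-T and 3.24 CPM in ES-NMP. Neural crest genes were 2 higher and 2 lower of 5, and genes of lateral mesoderm, blood and endothelium 2 higher and 3 lower of 7.

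Naive pluripotency genes had the lowest list median, -5.30, with 15 of 16 genes at least 2-fold lower in Epi-CE-T and none higher. Their summed level was 33.7 CPM in Epi-CE-T and 1896 CPM in ES-NMP. Zfp42 (chromosome 8, 43295063 to 43306980, minus strand), also called Rex1 and a classic marker of ground-state ESCs, had 0 UMIs in Epi-CE-T and 11962 in ES-NMP (167 CPM), so it was at least 2507-fold lower. Dppa3, a maternal and germ cell factor, had 1 UMI in Epi-CE-T and 5368 in ES-NMP, or 3375-fold lower (605 to 133321). Its log2 ratio was -11.72, and it was -8.91 with ES-NMP cluster 2 (naive pluripotent-like) left out and -9.28 in cells with a T UMI. Dppa5a, an ESC-enriched KH-domain gene, was at 0.378 CPM in Epi-CE-T and 1003 CPM in ES-NMP, and Tdh, the threonine dehydrogenase that mouse ESCs depend on, at 0.0889 CPM in Epi-CE-T and 205 CPM in ES-NMP. After thinning, Zfp42 was detected in 0 of 2109 Epi-CE-T cells, which allows a share of cells with a UMI of up to 0.142%, and in 898 of 3116 cells (28.8%, 27.2% to 30.4%) of ES-NMP, with 605 of 633 cells (95.6%) in its naive pluripotent-like cluster. When those cells were left out of ES-NMP, the list median was -3.58 and Dppa5a, Zfp42 and Tdh stayed at log2 ratios of -9.73, -8.44 and -9.48, so the difference was not confined to that cluster. The gene of the list within 2-fold, named after its value was seen, was Klf4, at 11.6 CPM in Epi-CE-T and 15.9 CPM in ES-NMP.

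Core and primed pluripotency genes were lower as well, in 9 of 17 genes with none higher (median -1.37). Dnmt3l, a cofactor of de novo DNA methylation, had 1 UMI in Epi-CE-T and was at 23.9 CPM in ES-NMP, or 1074-fold lower (193 to 42462). Its log2 ratio was -10.07, and it was -8.22 with ES-NMP cluster 2 left out and -6.10 in cells with a T UMI. Dnmt3b, the de novo methyltransferase of the epiblast, was at 17.7 CPM in Epi-CE-T and 148 CPM in ES-NMP, or 8.35-fold lower (7.77 to 8.98). Tdgf1, the Nodal co-receptor Cripto, was at 2.58 CPM in Epi-CE-T and 60.4 CPM in ES-NMP, or 23.4-fold lower (19.5 to 28.4). Pou5f1 (Oct4), chosen after its values were seen, was found after thinning in 344 of 2109 cells (16.3%, 14.8% to 18.0%) of Epi-CE-T and 2444 of 3116 cells (78.4%, 76.9% to 79.9%) of ES-NMP, and without thinning in 533 of 2109 cells (25.3%) and 2708 of 3116 cells (86.9%). Within Epi-CE-T it was detected in 239 of 434 cells (55.1%) of cluster 4 but in 9 of 536 cells (1.68%) of cluster 2. Pou5f1 in the sorted cells was thus found most often in the cluster with the least T.

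Of the 12 genes with the lowest ratios, 2 were on neither a pluripotency nor a posterior list. Pla2g1b, a secreted phospholipase, was at 0.711 CPM in Epi-CE-T and 91.8 CPM in ES-NMP. Mylpf, a skeletal muscle myosin light chain, was at 3.82 CPM in Epi-CE-T and 104.8 CPM in ES-NMP. Mylpf was mainly a gene of ES-NMP cluster 2, the naive pluripotent-like one (473 CPM), and its log2 ratio was -4.78 with that cluster and -1.46 without it. Klf2, a naive pluripotency factor, was at 8.02 CPM in Epi-CE-T and 265 CPM in ES-NMP, with a log2 ratio of -5.05 with that cluster and -2.82 without it. Dppa4, a chromatin protein of pluripotent cells, was at 1.22 CPM in Epi-CE-T and 57.1 CPM in ES-NMP.

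Germ cell genes were lower in 8 of 8 measured genes (median -3.97). Ddx4, an RNA helicase of germ cells, had 0 UMIs in Epi-CE-T and was at 5.17 CPM in ES-NMP, which is at least 77.5-fold lower, and the meiotic gene Mael had 0 in Epi-CE-T and 3.42 CPM in ES-NMP, or at least 51.3-fold lower. The Nodal and activin list was lower in 7 and higher in 1 of 10 genes (median -2.02). Its higher member was Cer1. Gdf3, a Nodal-related ligand, was at 1.11 CPM in Epi-CE-T and 48.0 CPM in ES-NMP, or 43.2-fold lower (32.7 to 58.3), and Lefty2, a feedback inhibitor of Nodal, at 0.867 CPM in Epi-CE-T and 26.2 CPM in ES-NMP, or 30.2-fold lower (22.0 to 42.7). As background, both genes respond to activin and Nodal signals, and activin A was withdrawn from the Epi-CE-T cultures and never described for those of ES-NMP.

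Every measured Hox gene was lower in Epi-CE-T. All 11 measured genes of paralogue groups 1 to 4 were at least 2-fold lower (median -2.82), all 14 of groups 5 to 9 were (median -5.12), and so was Hoxa10, the 1 measured gene of groups 10 to 13. The summed level of groups 1 to 4 was 23.5 CPM in Epi-CE-T and 175 CPM in ES-NMP. That of groups 5 to 9 was 8.25 CPM in Epi-CE-T and 214 CPM in ES-NMP. Hox genes give cells their position along the body axis, and later paralogue groups mark more posterior levels.

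Among the anterior genes, Hoxb1 was at 1.60 CPM in Epi-CE-T and 52.1 CPM in ES-NMP, or 32.6-fold lower (25.8 to 41.7), and Hoxb2 at 3.29 CPM in Epi-CE-T and 47.5 CPM in ES-NMP, or 14.4-fold lower (12.2 to 17.1). Hoxb8 was at 1.09 CPM in Epi-CE-T and 42.2 CPM in ES-NMP, or 38.8-fold lower (29.3 to 52.5). Hoxb9, of thoracic levels, was at 1.07 CPM in Epi-CE-T and 52.1 CPM in ES-NMP, or 48.8-fold lower (36.8 to 66.4), and after thinning it was detected in 7 of 2109 cells (0.332%, 0.134% to 0.683%) of Epi-CE-T and 662 of 3116 cells (21.2%, 19.8% to 22.7%) of ES-NMP. Without thinning these were 10 of 2109 cells (0.474%) and 979 of 3116 cells (31.4%). Hoxc8 had 2 UMIs in Epi-CE-T and was at 23.4 CPM in ES-NMP, a ratio of 525-fold with an interval of 145 to 4341. In ES-NMP the posterior genes were concentrated in cluster 4, where Hoxb9 was at 234 CPM, while the highest Epi-CE-T cluster, cluster 4, had it at 3.44 CPM. Epi-NMP, made by growing Epi-CE cells for 2 further days, had Hoxb9 at 151 CPM. The low Hox level went with low Cdx1 and Cdx2, which are known regulators of Hox genes, and their part in it was not tested.

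Other signalling lists moved gene by gene. Of 17 WNT targets and inhibitors, 5 were higher and 6 lower (median -0.49). Both populations had received CHIR99021 at 3 µM, for 24 h before collection in ES-NMP and for a time not given in Epi-CE-T. Notum, a WNT-induced secreted inhibitor, was at 2.20 CPM in Epi-CE-T and 33.1 CPM in ES-NMP, or 15.0-fold lower (12.3 to 18.6), whereas Wif1, a WNT-binding inhibitor, was at 1.98 CPM in Epi-CE-T and 0.210 CPM in ES-NMP, or 9.44-fold higher (5.43 to 17.6). Dkk4, a WNT-induced antagonist, had 0 UMIs in Epi-CE-T and 95 in ES-NMP, or at least 19.9-fold lower. The following 3 genes were chosen after their values were seen. The direct WNT target Axin2 was at 8.40 CPM in Epi-CE-T and 33.9 CPM in ES-NMP, and it was lower in every Epi-CE-T cluster than in any ES-NMP cluster. Lef1, a transcription factor of the pathway, was at 11.7 CPM in Epi-CE-T and 71.4 CPM in ES-NMP. Dkk1, a WNT-induced antagonist, went the other way, at 26.1 CPM in Epi-CE-T and 3.26 CPM in ES-NMP, and led cluster 3 of Epi-CE-T at 74.8 CPM.

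The FGF list had 2 higher and 5 lower of 16 genes (median -0.65). Over all measured genes 17.6% were higher and 12.2% lower, shares that also stand beside the list counts that follow. Fgf4, a ligand of pluripotent cells, had 0 UMIs in Epi-CE-T and was at 12.2 CPM in ES-NMP, or at least 184-fold lower, and the ERK phosphatase gene Dusp4 was at 213 CPM in Epi-CE-T and 36.4 CPM in ES-NMP, or 5.83-fold higher (5.58 to 6.09). FGF2 was added in the Epi-CE-T medium and not described in that of ES-NMP. The Notch list had 6 higher and 3 lower of 12, with the ligand gene Dll1 at 1.89 CPM in Epi-CE-T and 8.76 CPM in ES-NMP, the target gene Hes5 at 3.47 CPM in Epi-CE-T and 9.03 CPM in ES-NMP and the receptor gene Notch2 at 17.5 CPM in Epi-CE-T and 6.04 CPM in ES-NMP. The retinoic acid list had 3 higher and 4 lower of 10, and Dhrs3, a retinaldehyde reductase, was at 3.18 CPM in Epi-CE-T and 0.838 CPM in ES-NMP (3.79-fold higher). Motile cilia genes had 5 higher and 3 lower of 12, so Foxj1 (18.5-fold higher) moved more than most genes of that list. Pifo, a ciliary gene that Foxj1 is known to drive, was at 3.80 CPM in Epi-CE-T and 0.783 CPM in ES-NMP, and Tekt1, a ciliary microtubule gene, went the other way at 0.200 CPM in Epi-CE-T and 2.77 CPM in ES-NMP.

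Glycolysis and hypoxia genes were higher in Epi-CE-T across its clusters. Of 22 measured genes 17 were at least 2-fold higher and none lower, with a median of 1.63, and for 16 of the measured genes every Epi-CE-T cluster was above every ES-NMP cluster, against 10.5% of all genes. Their summed level was 25928 CPM in Epi-CE-T and 12426 CPM in ES-NMP. Aldoc, an aldolase of glycolysis, was at 173 CPM in Epi-CE-T and 17.2 CPM in ES-NMP, or 10.1-fold higher (9.51 to 10.7). P4ha1, a prolyl hydroxylase that matures collagen, was at 178 CPM in Epi-CE-T and 17.7 CPM in ES-NMP, or 10.0-fold higher (9.45 to 10.6). Egln3, an oxygen-sensing hydroxylase that HIF-1 induces, was at 50.8 CPM in Epi-CE-T and 5.30 CPM in ES-NMP, or 9.59-fold higher (8.60 to 10.7), and Bnip3, a HIF-induced mitophagy gene, was at 344 CPM in Epi-CE-T and 51.5 CPM in ES-NMP, or 6.67-fold higher (6.44 to 6.92). Slc16a3, the lactate exporter MCT4, was at 620.2 CPM in Epi-CE-T and 97.2 CPM in ES-NMP. In the order cluster 1 to cluster 5 of Epi-CE-T it was at 647, 621, 677, 541 and 782 CPM, and no ES-NMP cluster passed 137 CPM. The difference was therefore present in T-rich and T-poor cells alike. In unsorted Epi-CE, Slc16a3 was at 420.3 CPM. This gene lies on chromosome 11, where the median log2 ratio of Epi-CE-T over Epi-CE was 0.36. The oxygen level of the cultures was not given in the sources used.

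Many genes of this list are known targets of HIF-1, which binds hypoxia response elements with the core ACGTG. Promoter windows of 3 of them, the 250 bases before the RefSeq start on GRCm38 (mm10), are shown because they hold that core on either strand, which is given in capitals. The windows are P4ha1 at chr10:59323046-59323295, plus strand, Slc16a3 at chr11:120948817-120949066, plus strand and Bnip3 at chr7:138909507-138909756, minus strand. Slc16a3 was chosen after its values were seen.
P4ha1: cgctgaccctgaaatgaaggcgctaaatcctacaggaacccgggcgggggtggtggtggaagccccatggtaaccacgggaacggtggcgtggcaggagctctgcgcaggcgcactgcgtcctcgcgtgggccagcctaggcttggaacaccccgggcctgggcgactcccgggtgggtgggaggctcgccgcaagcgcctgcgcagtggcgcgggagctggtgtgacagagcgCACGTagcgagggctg
Slc16a3: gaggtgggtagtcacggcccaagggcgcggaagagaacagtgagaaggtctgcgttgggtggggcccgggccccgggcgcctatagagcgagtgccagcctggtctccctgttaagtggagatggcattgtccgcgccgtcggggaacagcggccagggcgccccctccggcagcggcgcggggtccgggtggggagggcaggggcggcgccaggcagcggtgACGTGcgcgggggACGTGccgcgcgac
Bnip3: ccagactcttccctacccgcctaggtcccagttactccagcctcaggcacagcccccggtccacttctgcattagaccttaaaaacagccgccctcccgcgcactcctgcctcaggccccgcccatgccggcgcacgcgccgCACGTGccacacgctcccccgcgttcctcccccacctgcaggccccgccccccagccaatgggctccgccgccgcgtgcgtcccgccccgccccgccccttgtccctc

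The core ACGTG, searched on both strands, was found in 14 of the 32 RefSeq promoter windows (43.8%) of 22 genes of the list and in 16.6% of all 32817 windows. Some genes have several windows. The windows were not matched for base composition, and its part in this difference was not tested. It overlaps the E-box CACGTG, as it does in the window of Bnip3. A match is a description of the letters, not of binding.

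Interferon and antigen presentation genes were higher in 14 and lower in 1 of 18 measured genes (median 2.10), and for 5 of them every Epi-CE-T cluster was above every ES-NMP cluster. Gbp2 and Gbp2b encode interferon-induced GTPases with closely related sequences, so their reads could be shared. Gbp2 was at 54.6 CPM in Epi-CE-T and 2.57 CPM in ES-NMP, or 21.2-fold higher (18.3 to 24.8), and Gbp2b was at 43.6 CPM in Epi-CE-T and 2.35 CPM in ES-NMP. Psmb8, the immunoproteasome subunit that trims peptides for presentation, was at 94.1 CPM in Epi-CE-T and 5.56 CPM in ES-NMP, or 16.9-fold higher (15.3 to 18.8). Ifit1, an antiviral RNA-binding protein gene, had 119 UMIs (2.65 CPM) in Epi-CE-T and 1 UMI in ES-NMP, or 189-fold higher (33.3 to 7538). The lower one was Ifitm3, an interferon-induced membrane protein gene that also marks early germ cells, named after its value was seen, at 18.1 CPM in Epi-CE-T and 72.4 CPM in ES-NMP. Psmb8 was highest in cluster 2 of Epi-CE-T, at 258 CPM, and in ES-NMP it was highest in cluster 8, at 37.4 CPM, and cluster 5, at 27.7 CPM. The classical ubiquitin-like gene Isg15, chosen after its values were seen, was at 17.8 CPM in Epi-CE-T and 1.62 CPM in ES-NMP, or 11.01-fold higher (9.05 to 13.5). Both populations were grown without a stated interferon or infection.

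Promoter windows of Gbp2 (chr3:142620413-142620662, plus strand) and Isg15 (chr4:156200819-156201068, minus strand), taken in the same way, are shown with the core of the interferon-stimulated response element, GAAA followed by 2 bases of any kind and GAAA again, on either strand, in capitals.
Gbp2: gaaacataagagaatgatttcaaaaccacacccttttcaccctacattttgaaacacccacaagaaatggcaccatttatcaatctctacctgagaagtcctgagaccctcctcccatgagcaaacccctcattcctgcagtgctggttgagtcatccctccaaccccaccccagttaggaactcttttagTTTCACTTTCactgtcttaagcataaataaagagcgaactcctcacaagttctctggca
Isg15: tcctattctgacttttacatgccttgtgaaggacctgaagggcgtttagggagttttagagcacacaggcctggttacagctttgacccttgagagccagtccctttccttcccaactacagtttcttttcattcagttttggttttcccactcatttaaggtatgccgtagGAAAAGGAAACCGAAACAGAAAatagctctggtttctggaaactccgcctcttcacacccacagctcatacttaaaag

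This core was found in 8 of the 20 windows (40.0%) of 17 genes of the list and in 2.97% of all windows, again without a match for base composition. In Isg15 overlapping matches run together. The forkhead core TGTTTAC was found in 0 of 15 windows of 12 genes of the node and notochord list and in 3.16% of all windows, and the GLI core GACCACCCA in 0 of 10 windows of 9 genes of the Hedgehog list and 0.225% of all windows, which says only that these letters are not in these windows.

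Simple keratins, annexins and S100 genes were higher in 10 of 15 genes and lower in none (median 1.27). Anxa2, a membrane-binding annexin, was at 277 CPM in Epi-CE-T and 17.1 CPM in ES-NMP, or 16.2-fold higher (15.3 to 17.2), and Krt19, a simple epithelial keratin, at 475 CPM in Epi-CE-T and 38.3 CPM in ES-NMP, or 12.4-fold higher (11.9 to 12.9). After thinning, Krt19 was detected in 1586 of 2109 cells (75.2%, 73.3% to 77.0%) of Epi-CE-T and 170 of 3116 cells (5.46%, 4.68% to 6.31%) of ES-NMP, and without thinning in 1841 of 2109 cells (87.3%) and 298 of 3116 cells (9.56%). In ES-NMP it was at 926 CPM in cluster 8 and at most 20.3 CPM in the other 7 clusters of at least 50 cells. Epithelial adhesion genes did not follow the keratins. Of 17 epithelial and mesenchymal genes 4 were higher and 8 lower, with the E-cadherin gene Cdh1 at 3.00 CPM in Epi-CE-T and 36.2 CPM in ES-NMP, or 12.1-fold lower (10.1 to 14.4), and the tight junction gene Cldn4 at 2.31 CPM in Epi-CE-T and 22.7 CPM in ES-NMP, or 9.82-fold lower (8.05 to 12.1). Epi-CE-T cells thus had more keratin and annexin RNA together with less E-cadherin and claudin RNA.

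IGF binding genes were higher in 5 of 8 and lower in none (median 1.86). Igfbp2, which binds IGF1 and IGF2 outside the cell, was at 2097 CPM (2083 to 2110.1) in Epi-CE-T and 252 CPM (248 to 256) in ES-NMP, or 8.33-fold higher (8.19 to 8.46), and it was above every ES-NMP cluster in every Epi-CE-T cluster. The growth factor gene Igf2 was at 18.6 CPM in Epi-CE-T and 2.91 CPM in ES-NMP. The imprinted genes to which Igf2 belongs were higher in 4 and lower in 3 of 19 (median 0.38), which is close to the share of all genes. H19, a maternally expressed long non-coding RNA beside Igf2, was at 14.2 CPM in Epi-CE-T and 0.992 CPM in ES-NMP, and Cdkn1c, a maternally expressed inhibitor of the cell cycle, at 565 CPM in Epi-CE-T and 97.2 CPM in ES-NMP, with 1652 CPM in cluster 2 of Epi-CE-T. Nnat, a paternally expressed gene, was at 2.67 CPM in Epi-CE-T and 22.6 CPM in ES-NMP and lower in every Epi-CE-T cluster than in any ES-NMP cluster of at least 50 cells.

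Of 15 immediate early genes 5 were higher and 1 lower (median 0.77), against 17.6% and 12.2% of all genes. Jun, an AP-1 factor, was at 319 CPM in Epi-CE-T and 42.4 CPM in ES-NMP, or 7.52-fold higher (7.23 to 7.82), and Junb at 129 CPM in Epi-CE-T and 24.2 CPM in ES-NMP, or 5.33-fold higher (5.05 to 5.63). The lower one was Atf3, a stress-induced factor, named after its value was seen, at 4.60 CPM in Epi-CE-T and 9.71 CPM in ES-NMP. Cell sorting is known to induce immediate early genes, and of the populations compared a sort is described for Epi-CE-T alone, so its part cannot be told apart. Jun was at 189 CPM in Epi-CE, which was unsorted but also differs from Epi-CE-T in library and in Hprt level. Of 10 p53 and apoptosis genes 2 were higher and 1 lower, which is close to the shares of all genes. Cdkn1a, the cell cycle inhibitor p21, was at 814 CPM in Epi-CE-T and 298 CPM in ES-NMP, or 2.73-fold higher (2.69 to 2.78), and Pmaip1, the pro-apoptotic gene Noxa, had 0 UMIs in Epi-CE-T and was at 8.59 CPM in ES-NMP, or at least 129-fold lower. Of 15 genes of the amino acid stress response 1, Ddit3, was higher and none was lower.

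Cell cycle genes separated by phase. Of 20 S phase genes 7 were at least 2-fold lower in Epi-CE-T and none higher (median -0.87), with the DNA repair gene Ung at 41.1 CPM in Epi-CE-T and 129 CPM in ES-NMP, or 3.14-fold lower (2.98 to 3.30), and the thymidylate synthase gene Tyms at 61.8 CPM in Epi-CE-T and 162 CPM in ES-NMP, or 2.63-fold lower (2.52 to 2.74). Of 20 G2 and M phase genes none passed 2-fold either way (median 0.08). Mitotic genes were uneven within Epi-CE-T. Nusap1, a spindle protein gene, was at 289 CPM in cluster 1 and 3.43 CPM in cluster 2, while ES-NMP clusters of at least 50 cells ran from 42.7 to 82.5 CPM. In cluster 2, which had the most T and the most Cdkn1c, Tyms was at 20.8 CPM, and in ES-NMP no cluster of at least 50 cells was under 122 CPM.

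Genes of purine metabolism were lower in 5 and higher in none of 14, led by the adenosine deaminase gene Ada at 2.29 CPM in Epi-CE-T and 13.3 CPM in ES-NMP, or 5.80-fold lower (4.73 to 7.18). The LIN28, HMGA and IGF2BP progenitor genes were lower in 4 of 10, led by Lin28a, an RNA-binding repressor of let-7, at 21.1 CPM in Epi-CE-T and 79.7 CPM in ES-NMP, or 3.78-fold lower (3.53 to 4.05). Of 10 DNA methylation genes 1 was higher, Tet2, a methylcytosine dioxygenase, at 9.71 CPM in Epi-CE-T and 1.73 CPM in ES-NMP, and 3 were lower. None of 20 nuclear genes of oxidative phosphorylation passed 2-fold, and the largest difference among them was that of Cycs, cytochrome c, at 170.0 CPM in Epi-CE-T and 335 CPM in ES-NMP. The higher glycolysis list in Epi-CE-T thus stood beside an oxidative list that was within 2-fold under scaling by library totals (median -0.18). Cycs had a log2 ratio of -0.98, and the shift of -0.10 under TMM scaling takes it past 2-fold. Of the 20 genes, 4 were lower in every Epi-CE-T cluster and 1 was higher in every one, against 8.24% and 10.5% of all genes.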

How the data were processed

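The authors deposited UMI counts per gene and cell barcode for each library of 10x Chromium single-cell RNA-seq, made with Cell Ranger 1.3.1 and Seurat 2.0 on mm10, per the submitters' processing notes. Alignment settings, annotation, strand handling and the meaning of the deposited TRUE mark were not given in the sources used. Barcodes marked TRUE were kept, which left out 4.18% of Epi-CE-T barcodes and 5.23% of ES-NMP barcodes. No doublet caller was run.

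Counts were summed per library and divided by the library total (CPM). A gene counted as measured when the libraries together held at least 50 of its UMIs, and differences of 2-fold or more were counted. Intervals are exact, at 95%, and cover counting error only: conditional binomial for ratios, Poisson for levels, and Clopper-Pearson binomial for shares of cells above 0. For a share of 0 the limit given is 3 cells of the total, and it limits cells with a UMI, not cells expressing the gene. A count of 0 was set to the floor of 3 counts per library for log2 values and bounds. With 1 library a group no p-value was made. Cells were clustered within each library (2000 variable genes, 20 principal components, 15 neighbours, Leiden resolution 0.5; leidenalg 0.10.2, scikit-learn 1.9.0), and clusters of at least 50 cells were named from marker lists. A name needed at least 3 markers at 5 CPM or more and 2-fold over the rest of the library, at least 1 of them among the cluster's top 10 genes by fold, and no other list with more of its markers among those 10. The naming rule was tightened, by asking for a lead of 2 markers over the next list, after a first clustering was seen. Scripts ran under Python 3.11.15 with numpy 2.4.6, scipy 1.17.1 and pandas 2.3.3. TMM factors from edgeR 4.0.16 and size factors from DESeq2 1.42.0 under R 4.3.3 served only as alternative scalings.

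Gene lists (43, with 581 genes) and the members were chosen with earlier results of these data known. Names in the text come from the caudal, node, endoderm and Hox lists, the 4 measured members of each other list that differ most, and the 12 highest and 12 lowest ratios among genes with at least 200 UMIs and 50 CPM in the higher library. Other names are said to have been chosen after their values were seen. The list of genes of the 2-cell-like state had 0 measured members. Promoter windows and gene names came from RefSeq tables of GRCm38.p6, and gene positions from GENCODE M21 of the same build (mm10). A few genes counted in the lists are not reported here by name. The computation was tested on simulated data.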

Additional observations from a re-analysis of the deposited data

How the results depend on the processing

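No paired analysis was possible because each population is 1 library. The counts of genes at least 2-fold higher and lower in Epi-CE-T, 2368 and 1641, became 4632 and 2688 with a minimum of 1 UMI and 1228 and 763 with a minimum of 500 UMIs. With 1.5-fold as the size they were 3799 and 2875, and with 4-fold 770 and 724. Under scaling by TMM factors they were 2117 and 1871, with cells that had a T UMI 2288 and 1383, and with ES-NMP cluster 2 (naive pluripotent-like) left out 2152 and 1426. Among lists with a median past 2-fold, the median changed sign for the neural list, to 0.30 with a minimum of 1 UMI and 0.31 in cells with a T UMI, and for the fibroblast list, to -4.47 with a minimum of 500 UMIs, where fewer of its genes were left. For the neural list the cause was not tested. Medians nearer 0 changed sign for the endoderm, lateral mesoderm, neural crest, Notch, DNA methylation and G2 and M phase lists in at least 1 setting each. Of 204 genes checked one by one, some of them chosen after their values were seen, none that was past 2-fold changed direction in the 9 settings. Sox2, which was within 2-fold, turned from a log2 ratio of -0.55 to 0.44 with ES-NMP cluster 2 left out. In cells with a T UMI it was 0.22. In cells with a T UMI 4 of 203 fell below 2-fold (Pax6, Ets1, Rarb and Mycn), and with that cluster left out 2 did (Uhrf1 and Mycn). The ratio moved by over 1.5-fold for 85 of 203 of these genes in cells with a T UMI, for 27 of 204 with that cluster left out, for 21 with cells from the 10th to the 90th percentile of UMIs, and for at most 7 in each other setting. Medians that moved by over 1.5-fold in cells with a T UMI were those of the caudal list (-4.60), naive genes (-4.58), primitive streak (-2.90), paraxial mesoderm (-2.40), endoderm (1.05), Hox groups 1 to 4 (-3.57), FGF (-1.32), Nodal (-3.30), BMP (1.60), retinoic acid (-1.21), cilia (1.17) and keratins (2.14). With a minimum of 500 UMIs the median was 1.04 for IGF binding genes, -2.43 for germ cell genes, -1.71 for contractile genes, -2.04 for paraxial mesoderm, -0.38 for neural genes, 1.76 for neural crest, 0.84 for lateral mesoderm, -0.53 for trophoblast and 1.42 for cilia. With a minimum of 1 UMI it was -2.90 for germ cell genes, -1.71 for contractile genes, -0.58 for neural crest and -0.33 for Hox groups 10 to 13. Without the 5% of cells with most UMIs it was -2.80 for Nodal and -1.76 for contractile genes, and from the 10th to the 90th percentile -2.73 for Nodal, -1.68 for neural, 2.38 for fibroblast and -1.76 for contractile genes. With ES-NMP cluster 2 left out it was -3.58 for naive genes and 0.28 for Hedgehog genes. Depth limits genes with few counts, and 1 library a group limits every value, since the spread between cultures was not measured.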

Other observations

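Genes outside the lists, chosen after their values were seen, are given one by one. For 3 genes of glycogen metabolism, which were not picked from a list, every Epi-CE-T cluster was above every ES-NMP cluster. The branching enzyme gene Gbe1 was at 95.4 CPM in Epi-CE-T and 6.29 CPM in ES-NMP, the phosphoglucomutase gene Pgm2 at 203 CPM in Epi-CE-T and 16.8 CPM in ES-NMP, and Ppp1r3c, a subunit that directs protein phosphatase 1 to glycogen, at 22.0 CPM in Epi-CE-T and 0.810 CPM in ES-NMP. Txnip, a glucose-responsive inhibitor of glucose uptake, was at 210.5 CPM in Epi-CE-T and 17.4 CPM in ES-NMP, with every Epi-CE-T cluster at or above 190.0 CPM and no ES-NMP cluster of at least 50 cells above 36.6 CPM. Cluster 3 of Epi-CE-T held homeobox genes, with Mnx1 at 48.7 CPM and En1 at 26.5 CPM there, against 2.88 and 1.33 CPM in ES-NMP as a whole. Tph1, the enzyme that starts serotonin synthesis, was at 7.42 CPM in Epi-CE-T and 0.182 CPM in ES-NMP, and Bmp5, a BMP ligand gene, at 27.4 CPM in Epi-CE-T and 0.238 CPM in ES-NMP. Iapp, the islet peptide amylin, was at 86.5 CPM in cluster 5 of Epi-CE-T and had 1 UMI in all ES-NMP cells. On the lower side, the oocyte gene Ooep and the germ cell proteasome gene Psma8 had 0 UMIs in Epi-CE-T, and were at 12.9 and 7.48 CPM in ES-NMP, which is at least 193-fold lower and at least 112-fold lower.

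The median log2 ratio of all genes on a chromosome was taken over 5972 genes with at least 10 CPM in all 4 libraries of the series. For Epi-CE-T over ES-NMP it was 0.00 on chromosome 8 (356 genes) and 0.11 on chromosome 11 (549 genes), and between -0.15 and 0.05 on each of the other 18 chromosomes. For Epi-CE-T over unsorted Epi-CE it was 0.47 on chromosome 8 and 0.36 on chromosome 11, and between -0.10 and -0.01 on the other 18. For Epi-CE over ES-NMP it was -0.47 on chromosome 8 and -0.24 on chromosome 11. For Epi-NMP over ES-NMP it was -0.46 on chromosome 8 and -0.10 on chromosome 11, and between 0.02 and 0.11 on the other 18. The chromosome 8 median was thus lower than ES-NMP in both Epi-CE and Epi-NMP, but not in Epi-CE-T.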
